A study of Mus musculus with 26 samples.

Results

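H3K27ac, acetylation of histone H3 at lysine 27, was compared at 48 h between nonpermissive and control supporting cells sorted from cultured mouse cochleae. Nonpermissive cells came from cochleae treated with DAPT and carried the Lfng-CreER/TdT label without Atoh1-GFP, and control cells came from cochleae treated with DMSO, the solvent, and carried the Lfng-CreER/TdT label. All cochleae were taken at postnatal day 1 and cultured in medium with N2, B27, EGF and FGF, and both groups were sorted by FACS after trypsin digestion. The label rests on Cre activity under Lfng, so the sort takes cells that expressed Lfng when Cre was active, and it does not separate the kinds of supporting cell. The measurement was CUT&RUN, in which a nuclease tethered by an antibody releases the marked chromatin, with 2 peak lists per group among 26 samples in the series. Merging every overlapping peak of the 4 lists on chromosomes 1 to 19 and X turned 252954 peaks into 139621 regions, against 232378 regions when the 2 lists of permissive cells, DAPT-treated cells that did carry Atoh1-GFP, are merged in as well. The labels do not say whether replicates came from separate animals.

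Supporting cells surround the sensory hair cells of the cochlea and are held in their fate by Notch signalling. Ligands on hair cells activate Notch receptors on supporting cells, gamma-secretase frees the receptor's intracellular domain, and this domain joins the DNA-binding protein RBPJ to switch on repressors of the Hes and Hey families, which keep the hair cell factor Atoh1 silent. DAPT inhibits gamma-secretase. H3K27ac marks active promoters and enhancers, and it is deposited by acetyltransferases such as Crebbp and removed by histone deacetylases.

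Promoter sequences are shown for 4 genes at which the H3K27ac regions below differ between groups or carry the Notch pathway. Each run holds the 250 bases before the annotated start on the gene's own strand (RefSeq, GRCm38.p6, the assembly whose coordinates mm10 uses). Capitals mark the RBPJ motif GTGGGAA or its reverse complement in the first 3, and the E-box CAGCTG, the kind of site bound by Atoh1, in the last. Only windows that hold the marked motif were shown.
Hes5, chr4:154960673-154960922, plus strand: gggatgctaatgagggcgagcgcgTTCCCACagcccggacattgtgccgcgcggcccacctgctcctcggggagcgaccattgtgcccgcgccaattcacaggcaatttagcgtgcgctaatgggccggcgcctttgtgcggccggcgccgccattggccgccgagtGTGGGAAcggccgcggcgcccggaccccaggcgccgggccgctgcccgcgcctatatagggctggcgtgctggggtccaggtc
Taf1a, chr1:183388735-183388984, plus strand: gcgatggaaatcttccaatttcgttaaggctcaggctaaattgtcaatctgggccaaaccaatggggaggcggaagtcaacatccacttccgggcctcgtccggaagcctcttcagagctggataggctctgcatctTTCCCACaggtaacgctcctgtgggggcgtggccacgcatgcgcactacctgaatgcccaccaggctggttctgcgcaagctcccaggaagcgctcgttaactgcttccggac
Lfng, chr5:140607091-140607340, plus strand: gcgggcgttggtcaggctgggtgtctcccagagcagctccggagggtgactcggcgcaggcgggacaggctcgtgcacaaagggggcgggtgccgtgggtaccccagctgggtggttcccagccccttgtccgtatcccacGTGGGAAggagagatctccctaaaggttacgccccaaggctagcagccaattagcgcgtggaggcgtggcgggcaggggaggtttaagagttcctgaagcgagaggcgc
Gadd45g, chr13:51846425-51846674, plus strand: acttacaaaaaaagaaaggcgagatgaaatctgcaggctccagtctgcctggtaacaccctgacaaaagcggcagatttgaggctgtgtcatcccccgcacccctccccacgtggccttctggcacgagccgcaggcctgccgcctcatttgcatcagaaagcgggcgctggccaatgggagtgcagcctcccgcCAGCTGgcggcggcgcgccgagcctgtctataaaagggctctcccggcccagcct
In Hes5 the RBPJ match that begins 226 bases before the start lies inside a region with a peak in both control lists and neither nonpermissive list, and the match at 83 bases lies in no region. The match of Taf1a, 113 bases before the start, also lies in a region of the control lists, that of Lfng, at 109 bases, in a region of all 4 lists, and the E-box of Gadd45g, at 55 bases, in a region of the nonpermissive lists. Over all 32619 promoter windows, GTGGGAA occurred on either strand in 5.44%. It occurred in 4.4% of the 455 windows that overlap a region of both nonpermissive lists alone, in 10.0% (6) of the 60 that overlap a region of both control lists alone, and in 5.17% of 6735 that overlap a region of all 4 lists. The E-box CAGCTG occurred in 13.07% of all windows, and in 12.75%, 11.67% and 10.78% of these sets, so it was not more frequent in the nonpermissive-only windows than in all windows. The windows also differed in base composition: GC content was 60.9% in the first set, 53.6% in the second and 59.9% in the third, and the GC box GGGCGG was present in 62.0%, 31.7% and 58.3% of them. These are letter matches and not measured binding.

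The 4 peak lists were unequal, and nonpermissive 1 stood apart. It held 93854 peaks over 79.2 Mb with a median width of 586 bp. Nonpermissive 2 held 46148 peaks over 22.5 Mb (344 bp), control 1 held 57698 over 26.9 Mb (359 bp) and control 2 held 55254 over 24.7 Mb (331 bp). Peaks with a q-value above 0.05 made up 0.009% of nonpermissive 1, against 31.2% of nonpermissive 2, 32.8% of control 1 and 16.1% of control 2. Permissive 1 resembled nonpermissive 1 (114527 peaks, 87.6 Mb, 0.017% above that q). Permissive 2 covered a length like that of the other lists (72280 peaks, 27.1 Mb), but 74.7% of its peaks had a q-value above 0.05. The peak names inside both nonpermissive lists carry the same sample stem, ending in 2, although the lists share 1 identical interval. Of the peaks of nonpermissive 2, 70.3% overlapped nonpermissive 1, and 66.1% of control 1 and 65.5% of control 2 did so as well, so overlap with nonpermissive 1 hardly distinguished its own group. Sequencing depth behind the lists is unknown.

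Most regions belonged to 1 list. A peak in all 4 lists was found in 13652 regions (9.78% of 139621), in both nonpermissive lists and no control list in 4266 (3.06%), and in both control lists and no nonpermissive list in 933 (0.668%). The first pattern in size was a peak in nonpermissive 1 alone (48740 regions), followed by control 1 alone (17395), control 2 alone (16741) and, after the regions of all 4 lists, nonpermissive 2 alone (11807). Pairs went by the long list: nonpermissive 1 shared 8041 regions with control 1 alone and 5797 with control 2 alone, against 4266 with nonpermissive 2 alone. Nonpermissive 2 shared 582 with control 1 alone and 677 with control 2 alone, fewer than the 933 that the control lists shared with each other. With 2 lists against 2, an exact permutation test cannot give a p under 0.333, so these counts carry no test.

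**Figure D1:**
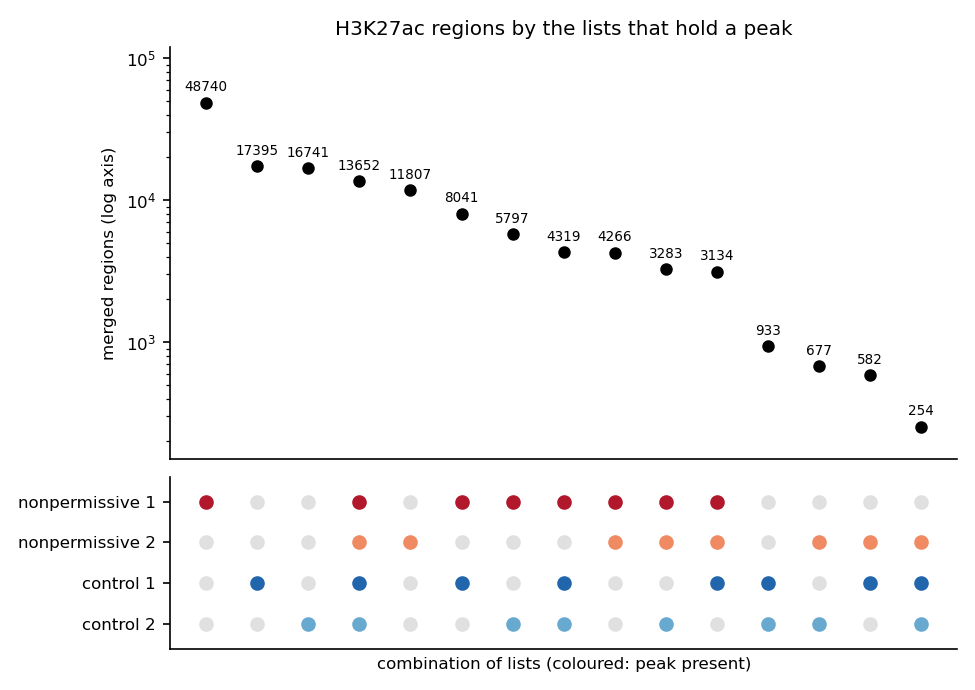
Merged H3K27ac regions (log axis) for each combination of the 4 peak lists that hold a peak, with the combination shown by coloured dots below. Regions of nonpermissive 1 alone (48740) outnumber those of all 4 lists (13652), and regions of both nonpermissive lists alone (4266) outnumber those of both control lists alone (933).

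The regions of each pattern differed in size and place. Regions of both nonpermissive lists alone had a median width of 746.5 bp and regions of both control lists alone 508 bp, while regions of all 4 lists spanned 1752 bp. A gene start lay within 1 kb of 15.0% of the nonpermissive-only regions and 10.9% of the control-only regions, against 40.1% of the regions in all 4 lists and 10.3% of every region. The enrichment, which is the deposited ratio of signal to local background at the strongest peak of a region, had medians of 4.43 in nonpermissive 1 and 3.92 in nonpermissive 2 over the nonpermissive-only regions, and of 3.42 in control 1 and 3.6 in control 2 over the control-only regions. In the regions of all 4 lists the medians were 8.87 and 5.22 in the nonpermissive lists and 4.56 and 5.14 in the control lists. The median over all peaks was 4.14 in nonpermissive 1, 3.92 in nonpermissive 2, 3.42 in control 1 and 4.11 in control 2. Regions of one group alone thus had lower medians than the shared regions in each list, and in control 2 the control-only median also lay below that of all its peaks. A q-value under 0.05 in both of the own lists was reached by 2632 nonpermissive-only regions (61.7%) and 491 control-only regions (52.6%), and in all 4 lists by 11025 of the shared regions (80.8%). At a −log10 q of 5 or more in every own list, 55 nonpermissive-only and 4 control-only regions were left, beside 1900 shared regions. When each list was first cut to its peaks at that q, 1641 regions were nonpermissive-only and 19 control-only. That cut left the lists very unequal, with 42896 peaks in nonpermissive 1 and 5925 in nonpermissive 2. Control 1 kept 5622 and control 2 kept 5757, so these 2 counts cannot be read apart from list length. With the 4 lists cut to 46148 peaks each by p-value, they numbered 2989 and 1184.

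The permissive lists and open chromatin gave readouts from other samples for the same regions. Of the nonpermissive-only regions, 51.5% had a peak in permissive 1 and 22.5% in permissive 2, and 44.1% had none in either. Of the control-only regions, 32.8% and 14.9% had one, and 61.2% had none. Of every region, 35.84% and 15.93% had one and 60.85% had none, so the control-only shares lay near those of every region. ATAC peaks overlapped 41.7% and 53.2% of the nonpermissive-only regions in the nonpermissive ATAC lists, against 53.5% and 40.4% in the control ATAC lists. For control-only regions the shares were 31.9% and 43.4% in the nonpermissive ATAC lists, against 48.0% and 36.1% in the control ATAC lists. In both classes the ranges of the groups overlapped. An ATAC peak in both nonpermissive and neither control list was found at 71 nonpermissive-only regions (1.66%) and the reverse at 76 (1.78%). At control-only regions these counts were 11 (1.18%) and 32 (3.43%), beside 0.94% and 1.22% of every region.

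Among the strongest nonpermissive-only regions, the one over the start of Ttll4, an enzyme that adds glutamate chains to tubulin, had an enrichment of 8.87 in nonpermissive 1 and 7.18 in nonpermissive 2 (chr1:74661430, width 1326 bp). A region 2291 bp from Aqp5, a water channel, had 8.28 and 7.18, and a region 5462 bp from Gli2, a transcription factor of the Hedgehog pathway, had 7.39 and 7.18. The others of the first 12 lay beside Snrpd3 (a core protein of the spliceosome), Pank3 (coenzyme A synthesis), Ncaph (a condensin subunit), Atn1, Rhpn2, Tiam2 (an activator of the GTPase Rac), Pdcd2l, Evi5 and Nab1, with enrichments of 6.8 to 10.9 in nonpermissive 1 and of 6.53 to 7.83 in nonpermissive 2. With peaks within 500 bp merged 8 of the 12 remained nonpermissive-only, and those of Aqp5, Snrpd3, Pank3 and Nab1 were lost. All 12 remained with lists of equal length and at a −log10 q of 5, settings that keep strong peaks by construction. At 11 of these 12 genes the region also had an ATAC peak in at least 1 control list and at least 1 nonpermissive list, and at the region of Snrpd3 in 1 control list alone.

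The strongest control-only regions were weaker. The region 3523 bp from Etv3l, an ETS family factor, had an enrichment of 6.47 in control 1 and 6.17 in control 2. The region 1095 bp from Vill, a protein related to the actin regulator villin, had 6.09 and 5.66. Bend6, which in mouse neural stem cells antagonises RBPJ-dependent Notch targets, had a control-only region 23844 bp from its start with 4.95 and 5.14. Another 8 of the first 12 lay beside Prkag2 (a subunit of the energy sensor AMPK), Dmkn, Spef1l, Taf1a (a factor of RNA polymerase I), Tmbim4, Gjd3 (a connexin), Dip2b and Pmepa1 (an inhibitor of TGF-beta signalling), with 4.18 to 7.23 in control 1 and 5.14 to 7.2 in control 2. With peaks within 500 bp merged 10 of the 12 remained control-only, and those of Vill and Pmepa1 were lost. All 12 remained with lists of equal length, and 1 at a −log10 q of 5. Where these 24 genes were tested for RNA, none reached an edgeR adjusted p of 0.05 between nonpermissive and control cells. Etv3l, Bend6, Dmkn, Spef1l and Gjd3 were not among the genes tested. The largest RNA difference was that of Vill (log2 fold change −2.59, edgeR adjusted p = 0.175).

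Regions present in all 4 lists allowed a test of enrichment. On the log2 scale, with each list centred on its median over these regions, limma called 0 regions higher (0%) and 0 lower (0%) of 13652 at an adjusted p of 0.05. The smallest limma adjusted p was 0.862, and 751 regions had an unadjusted limma p under 0.05. The 2 nonpermissive values lay above both control values at 2490 regions (18.2%) and below both at 2225 (16.3%). With 2 lists against 2, such separation has an exact permutation p of 0.333 at best, so these shares carry no test. Centring matters here: without it, the median region was 0.51 higher in nonpermissive lists on the log2 scale, 6043 regions lay above both control values and 185 below. Mapping and copy number were not examined at the regions called in the alternative fits that follow. With replicate number as a block, limma called 4 regions lower, all at least 171749 bp from the nearest start (chromosome 9, 3004073 to 3028064). Without nonpermissive 2 it called 1 region lower, at chr2:98665921, 42776 bp from the nearest start.

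The differences are described for the regions whose groups did not overlap. The largest positive difference lay 11555 bp from Edn2, which encodes the peptide endothelin 2, with an enrichment of 24.8 and 8.48 in the nonpermissive lists and 3.8 and 3.6 in the control lists, a centred log2 difference of 1.48 (limma adjusted p = 0.862). Separation of the groups was the condition for choosing these regions. At Edn2 nonpermissive 1 was much higher than nonpermissive 2 before centring. The region over the start of Gosr2, a membrane fusion protein of the Golgi, had 28.1 and 18.9 in the nonpermissive lists and 6.47 and 7.2 in the control lists (1.27). The region 530 bp from Sbf2, a myotubularin-related protein, had 13.9 and 13.7 in the nonpermissive lists and 4.18 and 4.11 in the control lists (1.24). Zfp617, Nde1 (a partner of the motor dynein), Lpp (an adhesion protein), Med16 (a Mediator subunit) and Ttc33 made up the rest of the 8, and each of these 5 regions lay over a gene start.

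Among the largest negative differences, the first 2 rested on a single list. The region 1732 bp from Brox had an enrichment of 4.43 and 46.3 in the nonpermissive lists and 48.7 and 62.2 in the control lists, a centred difference of −2.43 carried by nonpermissive 1. The region 2330 bp from Eif4enif1, which shuttles a translation factor to the nucleus, had 3.25 and 13.7 in the nonpermissive lists and 12.2 and 16.5 in the control lists (−1.57), again low in nonpermissive 1. The region 215 bp from Adra1d, an adrenergic receptor, was low in both nonpermissive lists, with 4.14 and 3.26 against 5.71 and 6.17 in the control lists (−1.18). So was the region over the start of Tmem216, a protein of the cilium base, with 4.73 and 3.26 against 6.47 and 6.17 (−1.18). Rtca, Frmd4b, Msrb1 and Snhg16 completed the 8, with differences of −1.20 to −1.13.

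**Figure D2:**
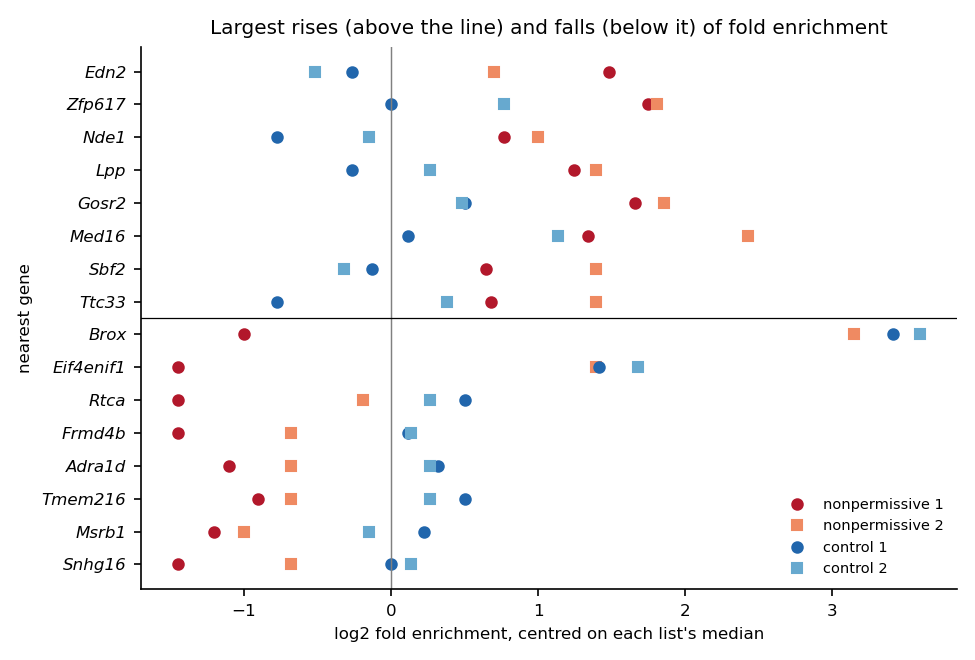
Centred log2 enrichment in each of the 4 lists (horizontal axis) at the 8 largest positive and 8 largest negative differences among regions in all 4 lists with no overlap between groups, named by the nearest gene. At Brox and Eif4enif1 nonpermissive 2 lies beside the control lists and nonpermissive 1 far below them.

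Width relative to the list was compared in the same regions. The list medians of covered length were 1631 bp in nonpermissive 1, 780 in nonpermissive 2, 768 in control 1 and 772 in control 2, and each value was divided by its list's median. At least 1.5 times as wide in each nonpermissive list as in each control list were 396 regions (2.9%), and the reverse held for 259 (1.9%). The largest ratio in favour of the nonpermissive lists was 3.48 times, 621 bp from Npepps, an aminopeptidase, followed by Rock1, a kinase of the actin cytoskeleton (3.21 times), and Slc44a1, a choline transporter (3.05 times). In favour of the control lists it was 2.88 times, near Cyth1, an activator of ARF GTPases, followed by Timm10 (2.43 times). Tmem216 was both among the 8 most negative differences of enrichment and among the 6 regions most narrowed relative to the control lists (2.25 times).

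Several genes gathered many regions of one group. A nonpermissive-only region lay within 50 kb of the start of 2912 of 34328 genes (8.48%) and a control-only region near 717 (2.09%), each region being given to its nearest start. Eya1, a phosphatase and transcriptional co-activator needed for ear development, had 6 nonpermissive-only regions and no control-only region. Its covered length was 65672 and 24007 bp in the nonpermissive lists, against 19882 and 16465 bp in the control lists. The excess was large in nonpermissive 1 and small in nonpermissive 2. Of the 6 regions, those that begin at 14185441 and 14190120 were lost with lists of equal length, and all at a −log10 q of 5. With peaks within 500 bp merged, only those that begin at 14161637 and 14185441 remained nonpermissive-only. Trim2, a ubiquitin ligase, had 6 such regions too, Adgrg6, an adhesion receptor, and Cobl, an actin nucleator, 5 each, and Elavl1 (an RNA-binding protein) and Fam168b 4 each. RNA did not follow these counts. Adgrg6 RNA was at 253, 208 and 116 CPM (counts scaled to a common library size) in nonpermissive cells, against 1143 and 488 CPM in control cells (log2 fold change −2.08 ± 0.50 (SE), edgeR adjusted p = 0.171). Cobl RNA was at 141, 81.7 and 97.6 CPM in nonpermissive cells, against 414 and 315 CPM in control cells (−1.77 ± 0.43, edgeR adjusted p = 0.18). Both were lower in every nonpermissive library without passing the test, and the other 4 genes had edgeR adjusted p-values of 0.882 to 1.0.

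Gadd45g, a growth arrest and stress gene, had 4 nonpermissive-only regions and little length covered in the control lists. The region over its start had an enrichment of 6.8 in nonpermissive 1 and 7.18 in nonpermissive 2, and remained nonpermissive-only with lists of equal length, with peaks within 500 bp merged and at a −log10 q of 5. Of the other 3 regions, those that begin at 51846863 and 51847886 were lost with lists of equal length, and all 3 at a −log10 q of 5. The covered length around the gene was 4599 and 2423 bp in the nonpermissive lists, against 0 and 792 bp in the control lists, with no overlap between groups. Both permissive lists also had a peak in the region over the start, as did all 4 ATAC lists. Its RNA was at 34.4, 32.5 and 112 CPM in nonpermissive cells, against 5.61 and 0.856 CPM in control cells. These levels do not overlap either, but the log2 fold change of 4.14 ± 0.96 (SE) did not pass (edgeR adjusted p = 0.171).

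Control-only regions gathered at other genes. Sfn, the 14-3-3 protein sigma of epithelia, had 3 of them, with enrichments of 3.42 and 4.11 over its start, 3.04 and 5.14 at 228 bp, and 3.8 and 4.11 at 12158 bp in the control lists. Its RNA was at 3.91, 1.71 and 2.24 CPM in nonpermissive cells, against 29.6 and 12.3 CPM in control cells (log2 fold change −2.95 ± 0.81, edgeR adjusted p = 0.255). Prickle1, a planar polarity gene, had 3 control-only regions and 1 nonpermissive-only region, with RNA at 21.5, 5.14 and 10.9 CPM in nonpermissive cells, against 68.3 and 73.6 CPM in control cells (−2.48, adjusted p = 0.171). Boc, a Hedgehog co-receptor, and Grifin, a galectin-related gene beside Lfng, had 3 each. The covered length around Boc was 19823 and 5633 bp in the nonpermissive lists, against 6235 and 6493 bp in the control lists. Its groups thus overlapped, and its RNA difference was 0.09 (edgeR adjusted p = 0.997).

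The largest gathering of control-only regions went by list and not by group. Hjurp, a chaperone of centromeric histone, and Mroh2a had 6 and 5 control-only regions within one 100 kb stretch of chromosome 1 (88.2 to 88.3 Mb). This stretch held 12 control-only regions, against at most 4 in any other of 20637 stretches. Of its 64 regions, nonpermissive 1 had a peak in 3 and nonpermissive 2 in 23, permissive 1 in 5 and permissive 2 in 31, and control 1 in 54 and control 2 in 25. The counts were low in the 2 long lists, one of each DAPT group, and nonpermissive 2 came close to control 2. A stretch of chromosome 11 (3.1 to 3.2 Mb) holds Sfi1 and Eif4enif1. Peaks lay in 3 and 8 of its regions for nonpermissive lists, 5 and 10 for permissive lists, and 16 and 13 for control lists. There the long lists were again lowest, but every DAPT list lay below both control lists. Next to Lfng, a stretch of chromosome 5 (140.5 to 140.6 Mb) holds Grifin and Chst12. It had peaks in 9 and 10 regions for nonpermissive lists, 7 and 17 for permissive lists, and 24 and 15 for control lists. Mapping and copy number in these stretches were not examined.

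The Notch genes carried regions of both kinds. Of 17 receptors, effectors and feedback genes, 6 (35.3%) had a nonpermissive-only and 5 (29.4%) a control-only region, beside 8.48% and 2.09% of all genes. Among the 12550 genes tested for RNA with a known position the shares were 14.4% and 2.92%. The 5 with control-only regions were the repressors Hes5, Hes1 and Heyl, the feedback inhibitor Nrarp and the helix-loop-helix inhibitor Id1. The 6 with nonpermissive-only regions were the receptor Notch1, the ligand Jag1, the DNA-binding partner Rbpj, the co-activator Maml1, the repressor Hey2 and the receptor-modifying enzyme Lfng. Of the 16 measured for RNA, 2 fell and 0 rose in nonpermissive cells (median log2 fold change −1.22), where 0.0671% of 13411 genes rose and 0.127% fell. In bulk samples fewer cells of a type and less RNA per cell cannot be told apart.

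At Hes5, the chief Notch-induced repressor of supporting cells, peaks near the start were weak in every list. The control-only region, chr4:154960391-154960768, ended 155 bp before the start and had enrichments of 3.04 in control 1 and 3.08 in control 2. The next region, chr4:154960907-154961483, covered the start and had a peak of 3.92 in nonpermissive 2 and 4.11 in control 2. Within 5 kb of the start lay 1 and 2 peaks of the nonpermissive lists, 1 and 4 of the permissive lists, and 4 and 3 of the control lists. The highest of these had an enrichment of 5.91 and 5.22 in the nonpermissive lists, against 3.42 and 5.14 in the control lists. Hes5 RNA was at 2.23, 0 and 1.92 CPM in nonpermissive cells, against 298 and 813 CPM in control cells, so every nonpermissive library was far below every control library. It fell, with a log2 fold change of −8.45 ± 1.10 (edgeR adjusted p = 0.00647; 0.0559 without nonpermissive RNA library 3). The control-only region of Hes5 was lost with lists of equal length, with peaks within 500 bp merged and at a −log10 q of 5.

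The other repressors and feedback genes with control-only regions had weak ones too. Heyl had 2 and 2 peaks of the nonpermissive lists within 5 kb of its starts, against 5 and 8 of the control lists. Its control-only region, chr4:123235793-123236221, had enrichments of 4.18 and 4.63, and the region of all 4 lists 3825 bp from a start had 5.32 and 3.26 in the nonpermissive lists against 6.09 and 4.63 in the control lists (centred difference −0.84, limma adjusted p = 0.862). Heyl RNA was at 14.2, 8.56 and 27.5 CPM in nonpermissive cells, against 226 and 243 CPM in control cells, and fell by 3.79 ± 0.63 (edgeR adjusted p = 0.0267; 0.0632 to 0.139 with any 1 RNA library of either group left out). Nrarp had 2 control-only regions, of which chr2:25178110-25179400 had 5.71 and 3.6. Its RNA, at 39.1, 5.14 and 41.6 CPM in nonpermissive cells against 122 and 12.8 CPM in control cells, overlapped between groups. Hes1 had a control-only region 2548 bp from its start (3.42 and 3.6), while its start region was in all 4 lists with 16.6 and 5.22 in the nonpermissive lists and 5.71 and 4.63 in the control lists. No control-only region of a Notch gene had a peak in either permissive list, which also held for 61.2% of all control-only regions. Of the 6, 4 remained with lists of equal length, 2 when those lists were also held to a q of 0.05, 3 with peaks within 500 bp merged, and 0 at a −log10 q of 5. Of the 8 nonpermissive-only regions of Notch genes, 4, 2, 2 and 0 remained.

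The nonpermissive-only regions of the Notch genes lay mostly away from the starts. Notch1 had 2 of them, 17432 and 12364 bp from its start, with enrichments of 8.87 and 7.39 in nonpermissive 1 and 3.26 and 3.92 in nonpermissive 2. Jag1 had 2 next to each other, 32191 and 32988 bp away, Lfng 1 at 7756 bp and Hey2 1 at 3790 bp. Their starts lay in regions of all 4 lists. That of Lfng had 17.1 and 19.6 in the nonpermissive lists and 9.51 and 11.3 in the control lists, a centred difference of 0.33 (limma adjusted p = 0.917). Lfng drives the sort label, so it was used in choosing the cells. Hey1, a further repressor, had 2 regions of all 4 lists, and its RNA differed by −3.0 ± 0.67 (edgeR adjusted p = 0.139).

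**Figure D3:**
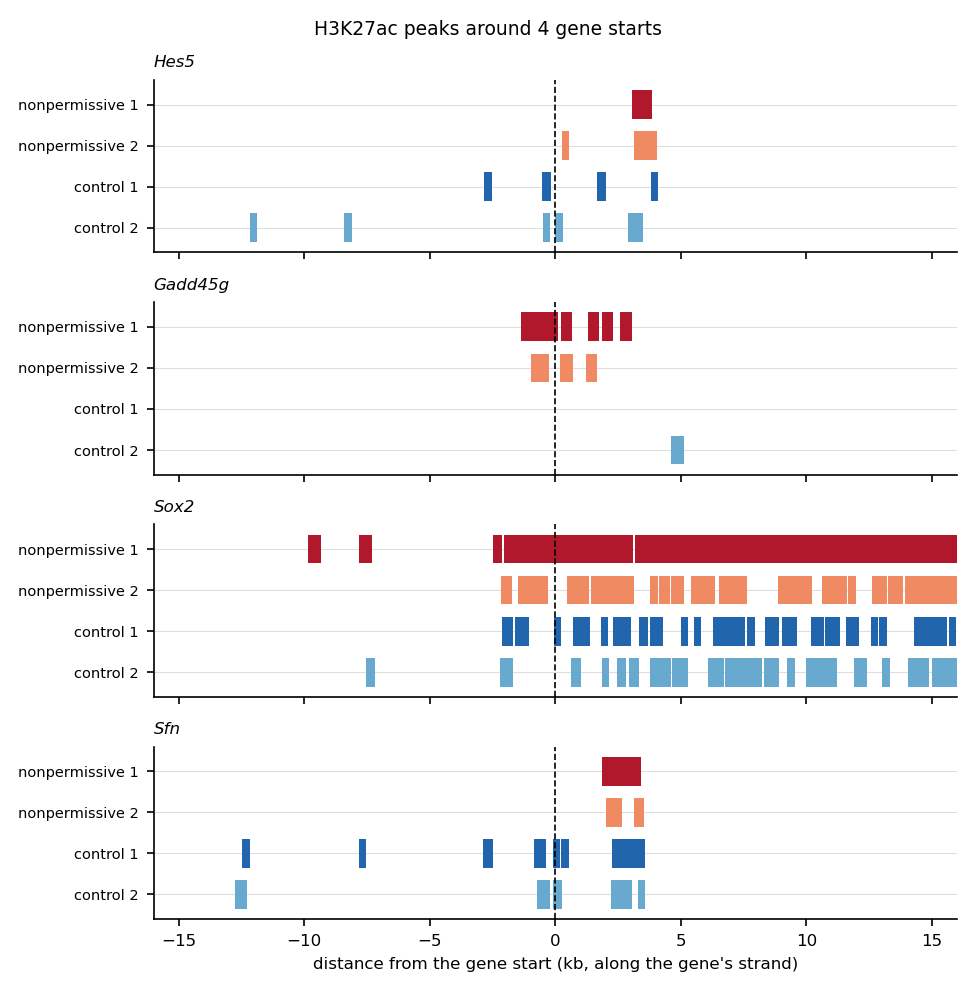
Peaks of the 4 lists within 16 kb of the starts of Hes5, Gadd45g, Sox2 and Sfn, by distance along the gene's strand. Gadd45g has peaks before and after its start in both nonpermissive lists and none of control 1, Sfn has peaks over its start in both control lists alone, and the peaks of Sox2 are longest in nonpermissive 1.

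Genes of supporting cell identity had peaks in every list. Of 24 pan-supporting and prosensory factors, 22 and 20 had a peak within 5 kb of a start in the nonpermissive lists, against 20 and 22 in the control lists. Sox2, the prosensory transcription factor, lay in 1 region of all 4 lists, with 19460 and 14610 bp covered in the nonpermissive lists and 11932 and 11502 bp in the control lists. Its enrichment was 18.6 and 12.4 in the nonpermissive lists and 5.33 and 6.17 in the control lists, a centred difference of 0.92 (limma adjusted p = 0.862). Both nonpermissive values were higher, and the RNA difference was −0.67 ± 0.47 (edgeR adjusted p = 0.864). Cdkn1b, the cell cycle inhibitor p27Kip1, had 16.3 and 11.7 over its start in the nonpermissive lists and 5.71 and 7.2 in the control lists. The centred difference there was 0.62 (limma adjusted p = 0.862), and the RNA difference of Cdkn1b was −0.85 ± 0.60 (edgeR adjusted p = 0.8625). Of the 24 factors, 7 (29.2%) had a nonpermissive-only region, among them Rorb with 2, and Isl1, Tecta and Tectb with 1 each, and 0 had a control-only region. Beside these stood 8.48% and 2.09% of all genes, and 14.4% and 2.92% of the genes tested for RNA with a known position. With lists of equal length 3 (12.5%) had a nonpermissive-only and 1 a control-only region, beside 6.29% and 2.65% of all genes, and at a q of 0.05 as well 5 and 2.

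Other lists carried regions of one group as well. Nonpermissive-only regions lay near 7 of 25 pillar and Deiters cell genes (Fgfr3, a growth factor receptor, with 2), 5 of 13 inner phalangeal and border cell genes (the glutamate transporter Slc1a3 with 2), and 7 of 19 matrix and tectorial membrane genes. They lay near 12 of 30 Wnt, FGF, TGF-beta and Hippo genes, with 3 at Znrf3, a ubiquitin ligase that restrains Wnt receptors, and 2 each at the ligand Fgf20 and the inhibitor Smad7. These are shares of 28.0%, 38.5%, 36.8% and 40.0%, beside 8.48% of all genes and 14.4% of the genes tested for RNA with a known position. Control-only regions lay near 2, 2, 0 and 4 members of these lists, or 8.0%, 15.4%, 0% and 13.3%, beside 2.09% of all genes and 2.92% of the tested genes. Lef1, a transcription factor of Wnt signalling, had 2 of them, and Fabp7, a lipid carrier, 1. Fabp7 RNA was at 1.96, 6.28 and 9.92 CPM in nonpermissive cells, against 109 and 58.5 CPM in control cells (log2 fold change −3.79 ± 0.76, edgeR adjusted p = 0.0755). With lists of equal length at a q of 0.05, nonpermissive-only regions were near 4 of the 25, 2 of the 13, 4 of the 19 and 4 of the 30 genes. Beside these stood 4.91% of all genes and 9.02% of the tested genes.

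**Figure D4:**
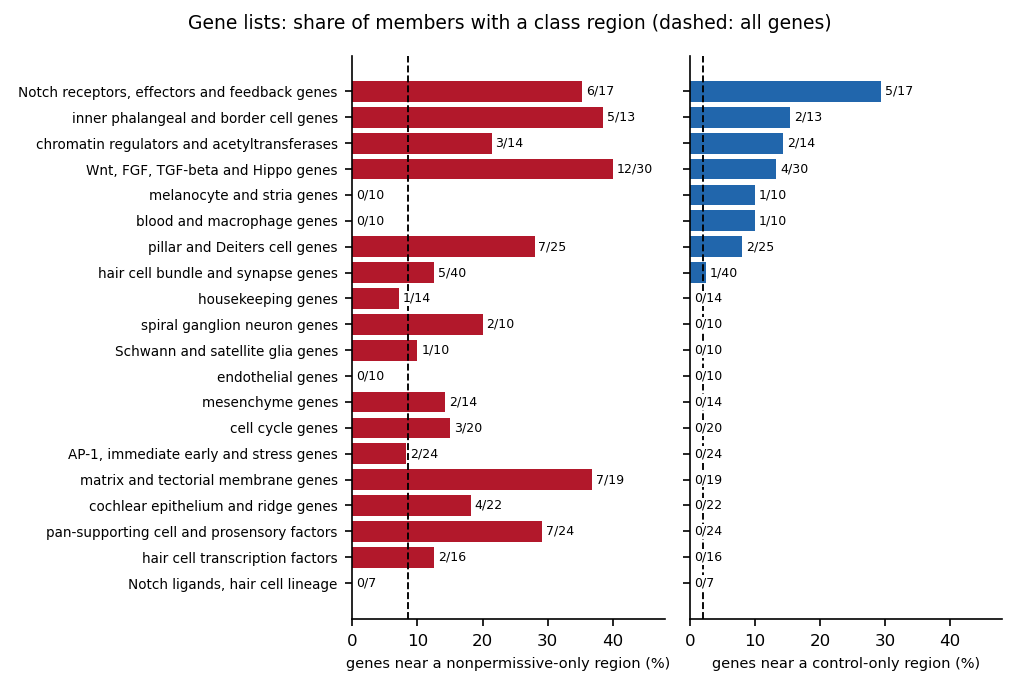
Share of the members of each gene list with a nonpermissive-only (left) or control-only (right) region within 50 kb, with counts. Dashed lines give all genes (8.48% and 2.09%). Among genes tested for RNA with a known position the shares were 14.4% and 2.92%. The Notch list has the highest share near control-only regions (5 of 17), but 2 of 17 (11.8%) with peaks within 500 bp merged, below 4 other lists, and 0 at a −log10 q of 5; lists of other cell types have none or 1 member there.

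Peaks at markers of other cells differed by cell type. Over all 34328 genes, 49.4% and 38.4% had a peak within 5 kb of a start in the nonpermissive lists, against 39.7% and 41.7% in the control lists. Such a peak was found for 1 and 1 of 10 endothelial genes in the nonpermissive lists and 1 and 1 in the control lists. For 10 blood and macrophage genes these counts were 4 and 2 in the nonpermissive lists and 1 and 3 in the control lists, and for 14 mesenchyme genes 5 and 4 against 6 and 6. Of 10 Schwann and satellite glia genes, 7 and 6 had such a peak in the nonpermissive lists and 8 and 6 in the control lists, so the 2 groups did not separate. For 10 melanocyte and stria genes the counts were 5 and 4 against 5 and 3, and for 10 spiral ganglion neuron genes 2 and 1 against 1 and 2. RNA of some of these lists moved between the groups: the median log2 fold change was 3.23 over the 8 endothelial genes tested (1 rose, 0 fell) and −1.85 over the 12 mesenchyme genes tested (0 and 0). The endothelial cadherin Cdh5 was at 81.0, 27.4 and 52.2 CPM in nonpermissive cells, against 8.23 and 6.85 CPM in control cells (log2 fold change 2.82 ± 0.72, edgeR adjusted p = 0.21). Over all genes tested the median was 0.01. The part of other cells in the differences between groups was not tested.

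At hair cell genes the nonpermissive lists had fewer peaks than the permissive lists and about as many as the control lists. Of 16 hair cell transcription factors, 6 and 4 had a peak within 5 kb of a start in the nonpermissive lists, 13 and 15 in the permissive lists, and 4 and 4 in the control lists. Of 40 bundle, synapse and cytoskeleton genes, 19 and 12 had one in the nonpermissive lists, 37 and 34 in the permissive lists, and 12 and 13 in the control lists. Of all 12550 genes with an RNA test and a known position the shares were 83.6% and 71.9% in the nonpermissive lists, 84.8% and 78.6% in the permissive lists, and 69.9% and 74.7% in the control lists. Atoh1, which initiates the hair cell programme, had 1 peak over its start in nonpermissive 1, with an enrichment of 3.84 and a width of 839 bp, and none within 5 kb in nonpermissive 2. In the permissive lists the peak over the start had 31.4 (9531 bp) and 6.38 (793 bp), and in the control lists no peak lay within 5 kb. Atoh1-GFP divides permissive from nonpermissive cells in the sort, so Atoh1 was used in choosing them. Hair cell genes are thus compared between cells chosen by Atoh1. Pou4f3 and Gfi1, factors that act with Atoh1, had no peak within 5 kb in any nonpermissive or control list. A region 14083 bp from Pou4f3 was in all 4 lists, with 16.6 and 3.92 in the nonpermissive lists and 3.42 and 4.11 in the control lists (centred difference 0.61, limma adjusted p = 0.862). Pou4f3 RNA averaged 37.0 CPM in nonpermissive cells and 9.35 CPM in control cells (log2 fold change 1.98 ± 0.48, edgeR adjusted p = 0.171).

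RNA of the same groups showed transcripts that the acetylation did not. Of 13411 genes tested, 9 rose and 17 fell in nonpermissive cells, with 2165340 to 4896371 counts per library. The ninth risen gene, mt-Nd3, is mitochondrial and has no position here. Of the other 8 risen genes, 1 and 1 had a peak within 5 kb of a start in the nonpermissive lists, 7 and 7 in the permissive lists, and 0 and 1 in the control lists. Peaks in both permissive lists and neither nonpermissive list were found at 5 of these 8 genes (62.5%), against 3.88% of all genes tested. Permissive and nonpermissive cells were sorted by Atoh1-GFP, so a difference in Atoh1 between them is part of how they were chosen. Atoh1 RNA was at 30.2, 41.1 and 67.2 CPM in nonpermissive cells, at 804, 1008 and 635 CPM in permissive cells, and at 3.55 and 2.28 CPM in control cells. It rose by 3.95 ± 0.57 against control (edgeR adjusted p = 0.0127; 0.0559 without nonpermissive RNA library 3, 0.069 and 0.166 without either control library). Miat, a long noncoding RNA, was at 62.5, 34.3 and 78.7 CPM in nonpermissive cells, 672, 970 and 826 CPM in permissive cells, and 2.43 and 0.856 CPM in control cells, with no peak within 5 kb in the nonpermissive and control lists and 2 and 3 in the permissive lists. Dlk2, Tnfaip8l1 and Tmem255b also had no peak within 5 kb in the nonpermissive and control lists, although their RNA rose in nonpermissive cells. In the permissive lists they had 4 and 3, 3 and 4, and 3 and 3 peaks. Calb2, the calcium buffer calretinin, had 0 and 1 peaks in the nonpermissive lists and 11 and 9 in the permissive lists. Kdr, an endothelial receptor, had no peak in any of the 6 lists. RNA and acetylation were measured in different samples, and the part of permissive cells within the nonpermissive RNA samples was not tested.

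**Figure D5:**
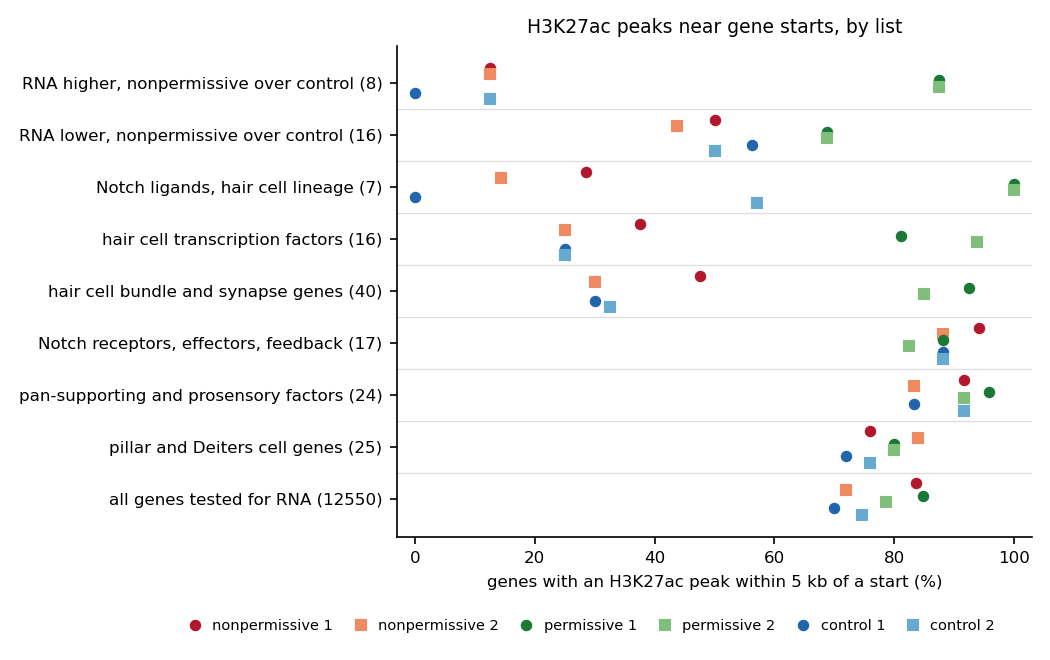
Share of genes with an H3K27ac peak within 5 kb of a start in each of 6 lists (horizontal axis), by gene list, with the number of genes in brackets. For genes whose RNA was higher in nonpermissive than in control cells, and for the 3 hair cell lists, nonpermissive and control lists lie below both permissive lists, while pan-supporting and Notch genes lie between 82.4% and 95.8% in all 6 lists.

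Some genes whose RNA fell had a control-only region. Of 16 such genes with a known position, 4 (25%) had one, against 367 of 12550 tested genes (2.92%), and 1 (6.2%) had a nonpermissive-only region, against 1802 (14.4%). The 4 were Hes5, Heyl, Sdc1 (the proteoglycan syndecan 1) and Dpysl4 (a cytoskeletal protein of neurons). Sdc1 RNA was at 86.6, 24.0 and 84.8 CPM in nonpermissive cells, against 466 and 719 CPM in control cells (log2 fold change −3.18, edgeR adjusted p = 0.0393). Dpysl4 RNA was at 11.4, 6.85 and 9.92 CPM in nonpermissive cells, against 52.0 and 102 CPM in control cells (−3.01, adjusted p = 0.0199). With lists of equal length the count was 6, namely Dpysl4, Heyl, Rab3b, Sdc1, Tmc5 and Ust, with peaks within 500 bp merged it was 1 (Sdc1), and at a −log10 q of 5 it was 0. The comparison with all tested genes depended on the H3K27ac lists. Without nonpermissive 1 the share was 50.0% against 16.9%, and without nonpermissive 2 it was 31.2% against 3.88%. Without control 1 it was 50.0% against 35.6%, and without control 2 it was 43.8% against 34.5%. Leaving out a list also redefines the class by the lists that remain. In the same order, control-only regions then numbered 5724, 1205, 17858 and 18507, against 933 with all lists. Without 1 RNA library, the adjusted p of Sdc1 was 0.0577 to 0.189 and that of Dpysl4 0.0159 to 0.178. Near the starts of the fallen genes the lists were alike: 8 and 7 of the 16 had a peak within 5 kb of a start in the nonpermissive lists, 11 and 11 in the permissive lists, and 9 and 8 in the control lists.

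Over all nearby genes the RNA differences were small. Genes nearest to a nonpermissive-only region and to no control-only region had a median log2 fold change of −0.09 (1708 genes), with medians of 0.02, −0.17 and −0.14 in the 3 nonpermissive libraries. Genes nearest to a control-only region and to no nonpermissive-only region had a median of −0.24 (273 genes), with −0.08, −0.46 and −0.23 in the 3 libraries, and 34.8% of them were positive. All 13411 genes had a median of 0.01 (50.3% positive), and the genes nearest to regions of all 4 lists −0.01. Of the 273 genes, 0 rose and 4 fell, and of the 1708, 0 rose and 1 fell (Cox4i2, a subunit of respiratory complex IV). For control-only regions within 1 kb of the start the median was −0.41 (63 genes), and for nonpermissive-only regions −0.01 (595 genes). Both medians changed when single lists or libraries were left out. The median near control-only regions was −0.03 without H3K27ac list nonpermissive 1, −0.05 without control 1 and −0.02 without control 2. Leaving out a list also redefines the class by the lists that remain. Control-only regions then numbered 5724, 17858 and 18507, against 933 with all 4 lists, so these medians cover other and larger sets of regions. The median near nonpermissive-only regions was 0.12 without control RNA library 1.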

How the data were processed

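The authors deposited H3K27ac peak lists (narrowPeak), ATAC peak lists and RNA gene tables. The submitters' processing notes name Bowtie2, MACS2, UMI-tools, STAR, RSEM and DESeq2 and the build mm10, without saying how each tool was set. Each deposited peak carries a fold enrichment over local background, which is a ratio, and a −log10 p and −log10 q value. RNA values are RSEM expected counts as the authors deposited them, rounded to whole numbers here. Sequencing depth of the peak lists is unknown; RNA libraries held 2165340 to 4896371 counts.

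Peaks sharing 1 bp were merged over the 4 lists on chromosomes 1 to 19 and X. No region was left out because of repeats or mapping. A region went to its nearest RefSeq start (GRCm38.p6) within 50 kb; for 7534 genes without a start in the promoter table both ends of the gene span were used. Windows of 5 kb around starts were added after seeing the data. Regions in all 4 lists were tested with limma 3.58.1 on log2 fold, centred on each list's median. RNA of 8 libraries at 48 h was fitted once with edgeR 4.0.16 (TMM, filtered, quasi-likelihood, Benjamini-Hochberg), with DESeq2 1.42.0 as an alternative. Both fits were tested on simulated data. IDs matched a gene for 48349 of 48709 (99.3%), and 12550 of 13411 tested genes had a position. Other software was Python 3.11.15 and R 4.3.3.

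Genes named are the 12 strongest regions of each class, the 8 largest differences each way, the 6 largest width ratios each way, the genes with most regions of one class, and members of the lists. Members and lists were chosen with earlier results of these data known. Replicate numbers were not shown to pair the samples: same-numbered deviations correlated at 0.08 for H3K27ac and at 0.23 and −0.04 for RNA. Since separate animals are not stated, p-values rest on a spread that may be technical. Some items are not reported here. Alternatives are given in the closing section.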

Additional observations from a re-analysis of the deposited data

How the results depend on the processing

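The presence counts depended most on the lists. A −log10 q of 5 left 42896 peaks in nonpermissive 1 and 5622 to 5925 in the other lists. At a −log10 q of 5 in each list, 1641 regions were nonpermissive-only, 19 control-only and 1896 in all 4 lists, 53 were wider and 28 narrower, the mean ATAC overlap was 93.76% of nonpermissive-only and 78.94% of control-only regions (main values 47.42% and 42.07%), and the median RNA difference near control-only regions was −0.54. Lists of equal length gave an ATAC overlap of 59.72% and 52.32%. Lists of equal length at a q of 0.05, chosen after seeing the data, gave 2229 nonpermissive-only regions, 8989 in all 4 lists, 220 wider and 158 narrower, with an ATAC overlap of 72.0% and 62.42%. With either nonpermissive list left out, nonpermissive-only regions numbered 19522 to 53516, control-only 1205 to 5724, regions of all remaining lists 13616 to 18033, wider 1024 to 1488 and narrower 1280 to 2210, and ATAC overlap was 20.8% to 21.51% and 45.68% to 57.98%. With either control list left out these were 7438 to 7594, 17858 to 18507, 16797 to 16913, 1689 to 1690, 1383 to 1532, 55.58% to 58.76% and 13.78% to 13.92%. Regions of lower enrichment numbered 0 to 1. The RNA median near control-only regions was −0.235 to −0.032 without a nonpermissive list and −0.051 to −0.017 without a control list, and −0.374 to −0.135 without an RNA library. Near nonpermissive-only regions it was −0.177 to 0.118, positive without control RNA library 1 (0.118) and without H3K27ac list control 2 (0.01). RNA calls numbered 1 to 6 higher and 1 to 8 lower without a nonpermissive library, and 0 to 1 higher and 4 to 21 lower without a control library. With the replicate block, limma called 4 regions lower and edgeR 12 genes higher and 24 lower; the numbers were not shown to pair the samples. With no filter on low counts edgeR called 129 genes higher and 173 lower, and DESeq2 called 78 and 77. The causes were not tested. No called result changed direction under the alternatives run.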
